A study of Mus musculus with 22 samples.

Results

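The Tol mouse carries its transgene next to Col1a1, the gene for the main chain of type I collagen, and the genes that surround this insertion site are the subject here. All genes whose annotated body overlaps the stretch from 500 kb before to 500 kb behind Col1a1 were taken, with Col1a1 itself left out. The GENCODE vM21 annotation of GRCm38 places Col1a1 on the plus strand of chromosome 11, from 94936224 to 94953042, and the window runs from 94436224 to 95453042. It holds 44 annotated genes, of which 35 have a row among the 34585 entries of the count tables. The other 9, which the annotation lists as non-coding RNAs, were not analysed here. Of the 35 genes, 27 are protein coding, 7 are unprocessed pseudogenes and 1 is a processed pseudogene. The 5′ side of Col1a1 holds 21 of them and the 3′ side, where the cassette was inserted, holds 14.

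A transgene that is driven by a strong promoter can act on neighbouring genes, because enhancer and promoter elements work over distance and on more than one gene. Sites that take up a cassette and leave their surroundings undisturbed are therefore sought for transgenic mice, and the region 3′ of Col1a1 is widely used as such a site. Whether the neighbours of the cassette differ between Tol and WT mice is the question that the values below address.

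RNA was sequenced from 22 tissue samples of C57BL/6 mice. Thymus and cerebrum each had 4 libraries per genotype, whereas cerebellum had 2 of Tol and 4 of WT mice. Tol mice were heterozygous for the Tol open reading frame under the CAG promoter, a strong and broadly active promoter, so each Tol cell keeps 1 copy of the locus without the cassette. The cassette was brought into embryonic stem cells of a C57BL/6J line by recombinase-mediated exchange, and chimeras were bred with C57BL/6JRj mice. WT mice were littermates without the cassette. Per its methods, the study used its mice as young adults. The number of stem cell clones behind the line and the sex are not given in the sources used here. Estimated counts summed to between 14543698 and 34776973 per library, with a median of 21577753.5. Levels are given as CPM, the count of a gene divided by the library total and set to a common total, scaled within an organ by the trimmed mean of M values (TMM), and a gene entered the test of an organ only if it passed the expression filter of edgeR. Tol and WT libraries were compared by edgeR's quasi-likelihood test over all genes of the organ, with Benjamini-Hochberg adjustment, and a gene was called at an adjusted p under 0.05. The labels do not say which libraries of different organs came from the same mouse. The study names the same number of mice per genotype for every organ, so that organs may share mice, and tests that join organs treat their libraries as independent.

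The Tol transcript itself was read in every Tol library. Its level was 26.6 ± 3.11 CPM (SD, n = 4) in Tol thymus, 143 ± 11.2 CPM (SD, n = 4) in Tol cerebrum and 161 ± 31.4 CPM (SD, n = 2) in Tol cerebellum. WT libraries held at most 2 counts of it, so that all 22 libraries matched their genotype labels. Against a floor of 3 counts per WT library, the Tol transcript was higher in Tol mice by at least 169-fold (thymus), 922-fold (cerebrum) and 1332-fold (cerebellum). Floors and counting intervals cover counting error only.

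One library went against its organ label. In the library labelled cerebellum Tol 2, the 6 cerebellar markers Cbln1, Pcp2, Gabra6, Zic1, Calb1 and Neurod1 summed to 204 CPM, while the other Tol cerebellum had 4495 CPM and the WT cerebella had between 1906 and 4291 CPM. Cbln1, a synaptic organizer of granule cells, stood at 24.4 CPM there and between 365 and 884 CPM in the other 5 cerebella. The 5 forebrain markers summed to 5.38 CPM in that library, against 378 to 471 CPM in cerebra. None of these markers was at 0. The fold changes of Tol against WT in cerebellum are therefore given with and without this library, and the plots show all libraries. Among WT cerebella, WT 2 had the lowest cerebellar marker sum and an oligodendrocyte marker sum of 15490 CPM, against a WT median of 6009 CPM. Markers of the choroid plexus (Ttr, Kl, Folr1 and Kcnj13) summed to 1234 CPM in WT 2 and to 4379 CPM in WT 4. In the other cerebella, Tol and WT, they summed to between 5.26 and 11.2 CPM. The part of these differences in the cerebellum values below was not tested.

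The neighbourhood is uneven. On the 5′ side, no gene that passed the expression filter in any organ lies within 100 kb of Col1a1. Both members in that interval, Gm11544 and A430060F13Rik, belong to 6 related pseudogene copies on both sides of Tmem92, whose sequences share between 77.9% and 97.2% of their bases (median 82.8% over 15 pairs). Whether reads could be assigned with certainty among these copies was not tested, and their counts are uncertain for that reason. The highest count of any of these copies in a library was 14, for Gm11545. On the 3′ side, 6 protein-coding genes follow within 100 kb. Sgca, which encodes alpha-sarcoglycan of the dystrophin-associated complex of muscle, ends 9.749 kb from Col1a1. Hils1, a linker histone gene of spermatids, lies at 14.551 kb. Behind them come Ppp1r9b at 37.993 kb, Samd14 at 56.837 kb, Pdk2 at 73.216 kb and Itga3 at 91.432 kb.

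Promoter sequences were available from RefSeq (GRCm38) for 24 of the 35 genes, as windows of 250 bases before to 50 bases after the transcription start. The windows of the nearest gene and of the nearest abundantly expressed gene are shown because they differ in base composition. Sgca runs towards Col1a1, so that its start lies behind the gene body, 23.3 kb from Col1a1, while the start of Ppp1r9b is its end nearest to the cassette. CG dinucleotides are in capitals, and the windows lie at chr11:94976278-94976577 (minus strand) and chr11:94990962-94991261 (plus strand).
Sgca: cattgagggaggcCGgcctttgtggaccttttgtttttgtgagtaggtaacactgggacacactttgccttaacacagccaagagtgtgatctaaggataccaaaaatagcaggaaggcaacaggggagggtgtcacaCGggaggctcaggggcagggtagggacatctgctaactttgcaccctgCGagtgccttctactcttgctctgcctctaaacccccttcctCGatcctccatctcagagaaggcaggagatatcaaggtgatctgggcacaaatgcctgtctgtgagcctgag
Ppp1r9b: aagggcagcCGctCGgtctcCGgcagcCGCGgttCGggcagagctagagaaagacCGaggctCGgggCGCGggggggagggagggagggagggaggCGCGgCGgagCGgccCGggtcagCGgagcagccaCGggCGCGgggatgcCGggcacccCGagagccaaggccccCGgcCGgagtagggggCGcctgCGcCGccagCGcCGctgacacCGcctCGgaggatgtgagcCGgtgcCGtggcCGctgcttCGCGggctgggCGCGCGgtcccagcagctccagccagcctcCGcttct
The Sgca window holds 4 CG dinucleotides and the Ppp1r9b window 39, and the median over all RefSeq promoter windows is 7.

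Eme1 and Mrpl27, which had the highest log2 fold changes of the 5′ side in Tol thymus, are transcribed in opposite directions. Their RefSeq starts are separated by 47 bases. GENCODE vM21 places the starts at 94653964 (Eme1) and 94653767 (Mrpl27), so that there the genes overlap, with 75 shared exon bases. Eme1 encodes the partner of the Mus81 nuclease, which resolves branched DNA in repair, and Mrpl27 encodes a protein of the large subunit of the mitochondrial ribosome. The Eme1 window (chr11:94653694-94653993, minus strand) is shown with the stretch from the RefSeq start of Eme1 to that of Mrpl27, both starts included, in capitals.
Eme1: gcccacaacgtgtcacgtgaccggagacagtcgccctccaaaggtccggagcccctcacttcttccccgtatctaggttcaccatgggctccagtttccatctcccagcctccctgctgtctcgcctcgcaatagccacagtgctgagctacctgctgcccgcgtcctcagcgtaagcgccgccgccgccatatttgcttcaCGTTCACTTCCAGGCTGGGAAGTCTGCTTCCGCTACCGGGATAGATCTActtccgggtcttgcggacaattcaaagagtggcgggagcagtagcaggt
Promoter motifs were searched on both strands of each window, namely the CAAT box as CCAAT, the TATA box as TATAAA, the GC box as GGGCGG and the site of ETS factors as CCGGAAG. Of these only CCGGAAG was found in the Eme1 and Mrpl27 windows, once in each. The windows overlap, and both hold the same site, at chr11:94653736-94653742. The motif occurs in 8.858% of the 32851 RefSeq windows of this length and for 5 of the 24 members, with this site counted for both genes. CCAAT was found for 8 of the 24 members, against 37.408% of all windows, GGGCGG for 7 against 35.658%, and TATAAA for 3 against 13.616%. A member was counted if any of its windows held the motif, whereas the shares are per window, so counts and shares are not the same measure.

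Of the 35 genes, 19 passed the filter in thymus, 17 in cerebrum, 22 in cerebellum, 15 in all 3 organs and 24 in at least 1. All 24 are protein coding. The 11 that passed in no single organ are the 8 pseudogenes and the coding genes Gm11541, Hils1 and Tac4, the last of which encodes a tachykinin peptide. A gene that passed only in an organ where it is high had to stand out there, so the following WT levels describe the locus and are compared between organs by the fit on the 12 WT libraries. In bulk tissue, fewer cells of a type and less RNA per cell cannot be told apart.

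Compared per kb of exon, Ppp1r9b had the highest WT level of the locus in thymus and cerebrum. Its product spinophilin tethers protein phosphatase 1 to the actin of dendritic spines. The WT level was 216 CPM per kb in cerebrum, 82.0 CPM per kb in cerebellum and 54.6 CPM per kb in thymus. Spop, the substrate adaptor of a cullin 3 ubiquitin ligase, had 74.1, 84.1 and 50.2 CPM per kb in the same order, which placed it after Ppp1r9b in cerebrum and thymus and first in cerebellum, where the ranges of the 4 WT libraries of both genes overlapped. Lrrc59, a membrane protein of the endoplasmic reticulum that binds ribosomes, came after these in thymus and cerebrum with 32.2 and 33.1 CPM per kb. In cerebellum Pdk2, a kinase that switches off pyruvate dehydrogenase, held that place with 56.0 CPM per kb. Sgca was low, with 0.260 CPM per kb in cerebellum, 0.142 in cerebrum and 0.0706 in thymus.

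Cerebrum and thymus of WT mice differed at 16 of the 22 members tested, 9 higher and 7 lower in cerebrum, where 84.3% of all genes were called (40.9% higher and 43.4% lower). Cerebellum and thymus differed at 18 of 22, 12 higher and 6 lower in cerebellum, against 83.5% of all genes (41.7% higher and 41.8% lower). Between the brain organs 13 of 22 differed, 3 higher and 10 lower in cerebrum, against 51.1% of all genes (24.6% higher and 26.4% lower). The totals lie near the shares of all genes. The splits by direction lie further from them in cerebellum against thymus and between the brain organs. Members of a locus are not replicates, and these counts are no result about the locus as a group. Of the 24 members that passed in an organ, the WT level was highest in cerebellum for 15, in thymus for 6 and in cerebrum for 3. Sgca, Spata20 and Cdc34b passed only in cerebellum, and Eme1 and Tmem92 only in thymus, so the filter favoured that organ for them. Some organs were close, as for Acsf2 with 4.46 to 5.13 CPM per kb. The share of all genes is not given here, so these counts too are no result about the locus.

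Of the 4 genes for nerve cells and signalling, the 3 that were tested were higher in both brain organs than in thymus. Tac4 was not tested there. It was at 0 counts in all WT cerebra, at 3 to 7 counts in WT cerebella and at 6 to 12 counts in WT thymi. Cacna1g encodes a T-type calcium channel of rhythmically firing neurons, and its log2 level exceeded that in thymus by 6.96 ± 0.354 (SE; edgeR adjusted p = 8.68e-10) in cerebrum and by 8.78 ± 0.37 (SE; edgeR adjusted p = 1.44e-10) in cerebellum. Samd14 was higher by 1.39 and 2.95 (edgeR adjusted p = 0.000645 and 9.61e-07), and Ppp1r9b by 1.96 and 0.55 (edgeR adjusted p = 7.35e-10 and 0.000127). Pdk2 exceeded thymus by 2.63 ± 0.108 and 3.54 ± 0.111 on the log2 scale (SE; edgeR adjusted p = 1.05e-10 and 9.9e-12). Mycbpap, described in testis and sperm, was higher than in thymus by 2.95 in cerebrum and by 4.43 in cerebellum. Spata20, also described in testis, summed to 1 count over the WT thymi, 8 over the WT cerebra and 73 over the WT cerebella. Its cerebellum level exceeded that of cerebrum 6.43-fold (95% counting interval 3.10 to 15.4, exact), and folds against the single count in thymus had intervals from 1.51 to 499 (cerebrum) and from 12.6 to 2895 (cerebellum).

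Other members marked the thymus. Eme1 was lower by 5.29 ± 0.269 on the log2 scale in cerebrum and by 5.48 ± 0.263 in cerebellum than in thymus (SE; edgeR adjusted p = 8.87e-10 and 5.24e-10), and had at most 5 counts in a WT cerebrum. Fam117a, a gene of little known function, stood at 29.7 CPM per kb in thymus and was lower by 4.69 and 2.20 in cerebrum and cerebellum. The homeobox gene Dlx3, which acts in skin, tooth and placenta, was lower in cerebellum by 1.34 on the log2 scale. Over the WT cerebra it summed to 2 counts, and the thymus level was 32.0-fold that of cerebrum (95% counting interval 8.60 to 268, exact). Tmem92 was at 0 counts in all 8 WT brain libraries, and against a floor of 3 counts per library it was at least 4.38-fold higher in thymus than in cerebrum and at least 5.65-fold higher than in cerebellum.

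Epn3, an epsin of clathrin-coated vesicles, was lower in cerebrum than in cerebellum by 4.35 ± 0.21 on the log2 scale (SE; edgeR adjusted p = 4.00e-08). The log2 difference was -2.49 for Fam117a and -1.91 for Dlx4. Dlx3, with 2 counts in WT cerebra against 36 in WT cerebella, was 12.7-fold higher in cerebellum (95% counting interval 3.26 to 109, exact). Kat7, a histone acetyltransferase, lay between 16 and 17.6 CPM per kb in all 3 organs, and Slc35b1, a nucleotide carrier of the endoplasmic reticulum, between 12.5 and 13.7 CPM per kb. The plot of WT levels shows these genes in chromosome order.

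**Figure D1:**
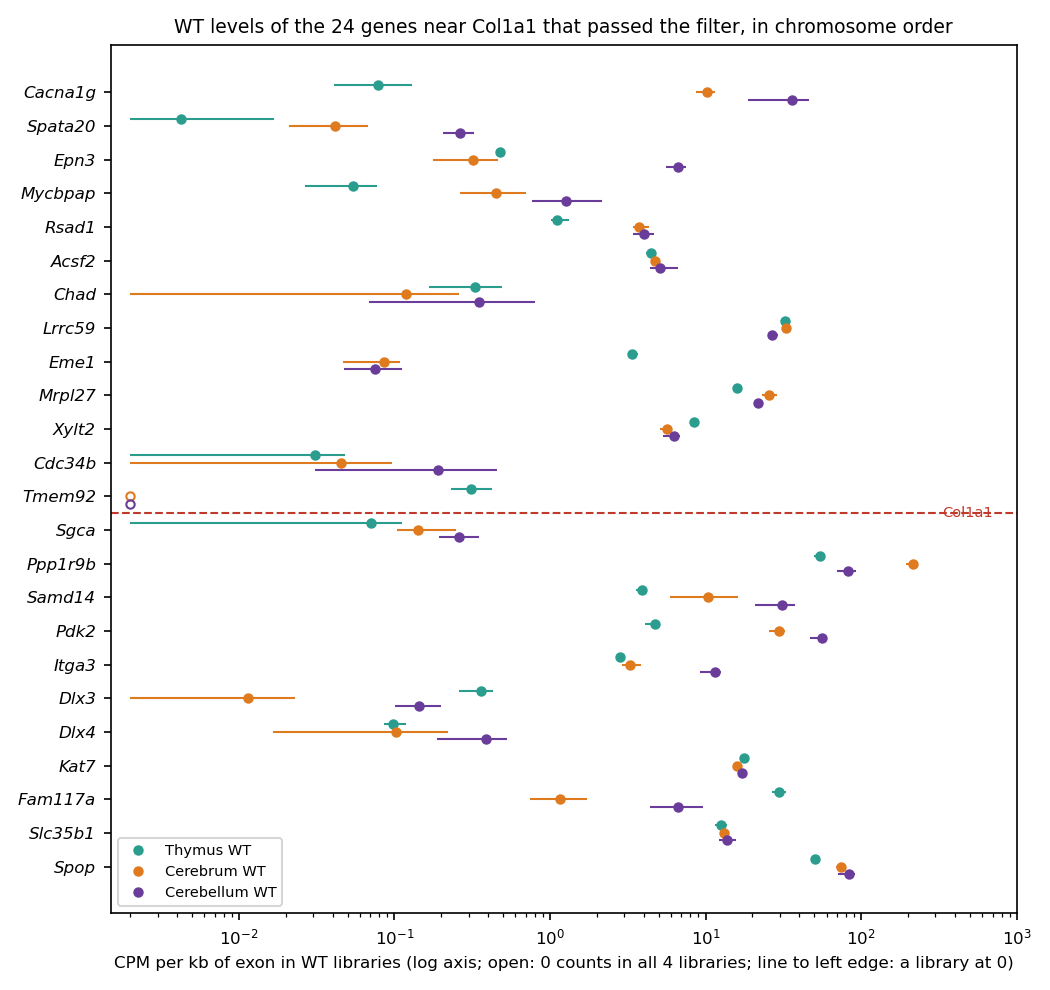
WT levels of the 24 members that passed the filter in an organ, in chromosome order from top to bottom, as CPM per kb of exon on a log axis. Points are means of 4 WT libraries, lines run from the lowest to the highest library, open points mark genes with 0 counts in all 4, and the dashed line marks Col1a1; Ppp1r9b reaches 216 CPM per kb in cerebrum.

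In thymus, none of the 19 members tested passed the threshold between Tol and WT mice, where 0.0985% of all genes did. The median log2 fold change was -0.01 over the members, 0.08 over 32 genes of chromosome 11 that lie between 500 kb and 2 Mb from Col1a1, and 0.01 over all genes. At an unadjusted p under 0.05 there were 5 members, 3 higher and 2 lower in Tol thymus, and 24.4% of all genes, 13.3% higher and 11.1% lower. DESeq2 called 2 of the 19 at an adjusted p under 0.05, against 7.98% of all genes. It gave no adjusted p for Dlx3, Epn3, Cacna1g, Chad and Tmem92. Genes without one were counted as not called, here and in the other DESeq2 counts and shares. The log2 fold changes of the 19 ran from -0.51 for Tmem92 to 0.53 for Dlx3.

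Ppp1r9b had the lowest thymus p of the locus. It was read at 251, 269, 295 and 246 CPM in the 4 Tol thymi and at 337, 343, 304 and 325 CPM in the 4 WT thymi. The Tol libraries were all below the WT libraries. The log2 fold change was -0.30 (95% interval -0.46 to -0.15; edgeR adjusted p = 0.083), and DESeq2 gave an adjusted p of 0.00294, within a range from 0.00294 to 0.224 over 17 alternatives. Removing the trend of each library with transcript length and GC content moved the log2 fold change to -0.22, with an edgeR adjusted p of 0.0837.

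Eme1 was next. Its Tol thymi stood at 13.3, 15.9, 12.5 and 16.2 CPM and its WT thymi at 11, 10.3, 12.1 and 10.5 CPM, so that the groups did not overlap. The log2 fold change was 0.40 (95% interval 0.17 to 0.63; edgeR adjusted p = 0.0862), with a DESeq2 adjusted p of 0.0245 and a range from 0.023 to 0.43 over 17 alternatives. Mrpl27, its divergent neighbour, stood at 18.5, 25.9, 21.0 and 24.5 CPM in Tol and at 17.9, 17.4, 20.1 and 18.5 CPM in WT thymus. These groups overlapped, and the log2 fold change was 0.28 (95% interval 0.05 to 0.51; edgeR adjusted p = 0.146). In the GENCODE annotation, exons of Eme1 overlap those of Lrrc59 and Mrpl27 on the other strand over 296 bases. Whether the counting used the strand is not given in the sources used here.

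Lrrc59, on the other side of Eme1, read 110, 108, 104 and 106 CPM in Tol and 116, 116, 121 and 114 CPM in WT thymus. Its groups did not overlap, at a log2 fold change of -0.13 (95% interval -0.24 to -0.01; edgeR adjusted p = 0.162). Dlx3 was low but also without overlap: the Tol thymi held 49, 30, 38 and 31 counts and the WT thymi 24, 14, 18 and 34 counts. In CPM the 4 Tol values ran from 1.43 to 1.84 and the 4 WT values from 0.795 to 1.34. The log2 fold change was 0.53 (95% interval 0.06 to 1; edgeR adjusted p = 0.161). These 4 members, Ppp1r9b, Eme1, Lrrc59 and Dlx3, were those without overlap, and 11.8% of all genes tested in thymus had none.

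The thymus calls depended on 1 library, while fold changes moved less. With each library left out, the log2 fold change ran from -0.36 to -0.27 for Ppp1r9b and from 0.34 to 0.46 for Eme1. That of Mrpl27 ran from 0.21 to 0.37. Tol 1 was the deepest thymus library, with 34776973 counts, while the other Tol thymi had between 18519829 and 20527399. Without it, edgeR called Ppp1r9b (adjusted p = 0.0249), Eme1 (adjusted p = 0.023) and Mrpl27 (adjusted p = 0.0205), and 18.2% of all genes were called. A trend with transcript length also ran through the thymus: across genes, the Spearman correlation of the log2 fold change with length was -0.384 over all genes and -0.528 over the 19 members. With the trends with length and GC content removed, the thymus log2 fold change was 0.35 for Eme1 and 0.18 for Mrpl27. Lrrc59 then had -0.15, Dlx3 0.51 and Itga3 -0.04. Genes are not independent replicates, and what part of the values above goes back to Tol 1 or to the trend was not tested.

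The plot of levels shows 6 of the members in every library.

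**Figure D2:**
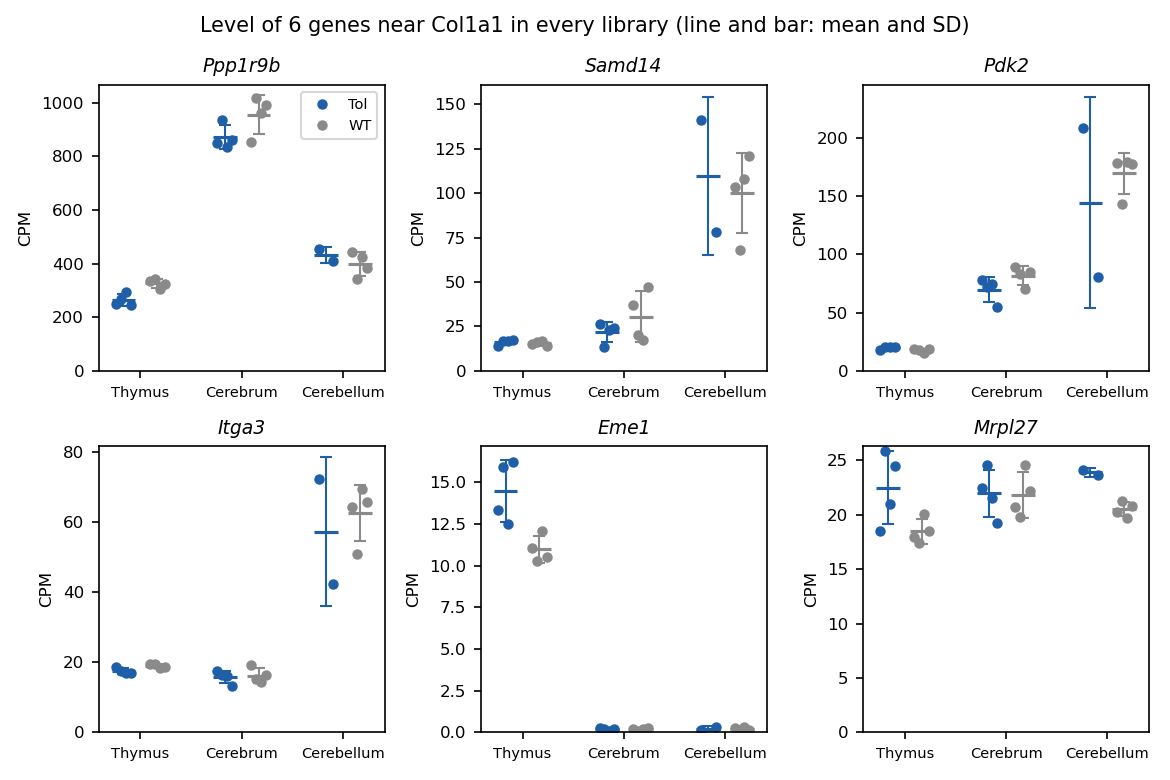
CPM of Ppp1r9b, Samd14, Pdk2, Itga3, Eme1 and Mrpl27 in each library of the 3 organs, with Tol in blue and WT in grey; lines and bars are the mean and SD. In thymus the Ppp1r9b values of Tol mice (246 to 295 CPM) lie below those of WT mice (304 to 343 CPM), and the cerebellum values of Pdk2 and Samd14 in Tol mice are far apart, the lower point being the library labelled cerebellum Tol 2.

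In cerebrum, none of the 17 members tested passed, and 0% of all genes did. The median log2 fold change of the members was -0.05, that of 30 genes at 500 kb to 2 Mb was -0.01, and that of all genes was -0.00. At an unadjusted p under 0.05 there was 1 member, against 9.66% of all genes, and DESeq2 called 0 of the members and 1.2% of all genes. That member was Acsf2, an acyl-CoA synthetase of mitochondria on the 5′ side. It stood at 13.0, 11.4, 12.1 and 12.5 CPM in Tol and at 14.9, 13.7, 14.0 and 14.1 CPM in WT cerebrum. It was also the sole member without overlap between the groups, which held for 6.51% of all genes, and its log2 fold change was -0.21 (95% interval -0.37 to -0.05; edgeR adjusted p = 0.38). The 4 members tested within 100 kb had log2 fold changes from -0.49 to -0.03, all below 0. The widest of these was Samd14, which varied within WT cerebra alone from 17.4 to 47.3 CPM.

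In cerebellum, none of the 22 members tested passed, at an unadjusted p under 0.05 there were 0 members, and DESeq2 called 0. Of all genes, with the same 6 libraries, edgeR called 0%, 3.16% had an unadjusted p under 0.05, and DESeq2 called 0.054%. The median log2 fold change of the members was -0.09 with all 6 libraries, 0.20 without the library labelled Tol 2 and -0.32 without Tol 1. With either left out, 1 Tol library remains and is assumed to vary like the WT libraries. Mrpl27 had the lowest p, at 24.1 and 23.6 CPM in Tol and 20.3, 21.3, 19.7 and 20.8 CPM in WT cerebellum. Both Tol values were above all WT values. Its log2 fold change was 0.22 (95% interval -0.01 to 0.45; edgeR adjusted p = 0.957), and 0.23 without the library labelled Tol 2. Xylt2, a xylosyltransferase that starts proteoglycan chains, was the other member without overlap, with 27.2 and 27.0 CPM in the Tol cerebella, whereas WT cerebella lay between 20.5 and 26.2 CPM, and its log2 fold change was 0.19 with and without the library labelled Tol 2. No overlap was seen for 10.8% of all genes. The lowest log2 fold change was that of Fam117a, -0.85 with all libraries and -0.16 without the library labelled Tol 2, where it stood at 3.91 CPM. Epn3 moved from -0.61 to 0.04, Pdk2 from -0.23 to 0.29 and Cacna1g from -0.17 to 0.40 when that library was left out.

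A single genotype effect over the 3 organs was fitted to all 22 libraries. The filter of that fit admitted 24 members, with Tac4 in place of Cdc34b. None of the 24 passed, against 0.116% of all genes, and 2 members and 10.4% of all genes had an unadjusted p under 0.05. DESeq2 called 0 of the members and 1.14% of all genes. The members with these p-values were Mrpl27, with a log2 fold change of 0.16 (95% interval 0.02 to 0.29; edgeR adjusted p = 0.388), and Ppp1r9b, with -0.14 (95% interval -0.27 to -0.01; edgeR adjusted p = 0.428). Without the library labelled cerebellum Tol 2, the values were 0.16 (edgeR adjusted p = 0.411) and -0.15 (edgeR adjusted p = 0.413). Dlx3, with 0.49, and Epn3, with -0.38, were the extremes. Without that library, Epn3 stood at -0.18, and the extremes of 25 members were Dlx3, with 0.63, and Chad, which encodes a matrix protein of cartilage, with -0.39.

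Whether the effect of Tol differed between cerebrum and thymus was tested as an interaction over 16 libraries. None of 21 members passed, against 0.107% of all genes, 1 member and 16.5% of all genes had an unadjusted p under 0.05, and DESeq2 called 0 of the members and 2.78% of all genes. The member was Pdk2, which stood at 18.1, 20.8, 20.7 and 20.2 CPM in Tol and 18.5, 17.5, 15.5 and 18.6 CPM in WT thymus. In cerebrum it stood at 77.8, 71.9, 74.8 and 54.6 CPM in Tol and 88.8, 83.3, 69.8 and 85.1 CPM in WT mice. The groups overlapped in both organs. The log2 fold change was 0.18 in thymus and -0.23 in cerebrum, a difference of -0.41 (95% interval -0.72 to -0.09; edgeR adjusted p = 0.189).

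Grouped by role, the counts were alike. Of the 4 mitochondrial and metabolic members, Pdk2, Acsf2, Mrpl27 and Rsad1, 0 were called in any organ, and 2 had positive and 2 negative log2 fold changes in each organ. Without the library labelled cerebellum Tol 2, 3 were positive and 1 was negative in cerebellum. The genes for nerve cells and signalling, with 3 of 4 tested in each organ, had log2 fold changes from -0.30 to 0.07 in thymus, from -0.49 to 0.16 in cerebrum and from -0.17 to 0.13 in cerebellum (0.18 to 0.49 without that library). Of the 7 members for cell surface, matrix and transport, 6 were tested in thymus (-0.51 to 0.11), 4 in cerebrum (-0.56 to 0.05) and 6 in cerebellum (-0.61 to 0.19, and -0.80 to 0.25 without that library). Of the 5 for chromatin and transcription, 3 were tested in thymus (-0.01 to 0.53), 3 in cerebrum (-0.05 to 0.87) and 4 in cerebellum (-0.76 to 0.45, and -0.03 to 0.97 without that library). The high cerebrum value is that of Dlx4, with 12, 11, 13 and 8 counts in Tol and 1, 6, 12 and 3 counts in WT cerebra.

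The genes closest to the cassette were near the limit of detection. Sgca had 4, 0, 1 and 2 counts in Tol and 3, 4, 3 and 0 counts in WT thymus, and 4, 3, 7 and 3 counts in Tol and 8, 3, 3 and 3 counts in WT cerebrum. It passed the filter in cerebellum, with 13 and 4 counts in Tol and 8, 14, 12 and 9 counts in WT mice. The groups overlapped there, and the log2 fold change was -0.35 (95% interval -1.75 to 1.05; edgeR adjusted p = 0.958) with all libraries and 0.25 without the library labelled Tol 2. Hils1 had at most 2 counts in a library, and at most 1 in a Tol library. A difference in these genes was not detectable at this depth unless it brought them well above the floor of 3 counts, and none of the 10 Tol libraries showed more than 13 counts of Sgca or 1 of Hils1. Beside them, the Tol transcript stood at 26.6 CPM or more on average in each organ.

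Ppp1r9b, the nearest abundant gene, had log2 fold changes of -0.30 in thymus, -0.13 in cerebrum (95% interval -0.31 to 0.04) and 0.11 in cerebellum (95% interval -0.24 to 0.47, and 0.18 without the library labelled Tol 2). In cerebrum it was read at 850, 936, 836 and 860 CPM in Tol and from 852 to 1017 CPM in WT mice, with overlap. Behind it, Itga3, the integrin alpha-3 chain of laminin receptors, had log2 fold changes of -0.12 (95% interval -0.27 to 0.03) in thymus, -0.03 in cerebrum and -0.13 in cerebellum, which turned to 0.20 without the library labelled Tol 2. Samd14 had 0.07 in thymus (95% interval -0.13 to 0.28) and 0.13 in cerebellum, or 0.49 without that library. The 5 members tested within 100 kb in cerebellum were then all above 0, from 0.18 to 0.49, as were 16 of all 22 members tested there. That fit rests on 1 Tol library, and with all libraries 2 of the 5 were above 0 and 3 below.

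Set out by distance, the absolute log2 fold change in thymus had a median of 0.15 over the 4 members tested within 100 kb, 0.52 over the 2 from 100 to 250 kb, which are Tmem92 and Dlx3, and 0.03 over the 13 from 250 to 500 kb. The Spearman correlation of its size with distance was -0.526 over the 19 members in thymus, -0.027 over 17 in cerebrum and -0.05 over 22 in cerebellum (-0.004 without the library labelled Tol 2). These are descriptions over genes that share the same libraries. In cerebrum the corresponding medians were 0.18 over 4 members, 0.87 for the single member Dlx4 and 0.11 over 12. In cerebellum they were 0.13 over 5, 0.58 over 3 and 0.18 over 14, and without that library 0.25, 0.29 and 0.20. By side, the median log2 fold change was -0.02 on the 5′ side and 0.01 on the 3′ side in thymus, 0.03 and -0.05 in cerebrum, and -0.05 and -0.12 in cerebellum, where without that library it was 0.19 and 0.20.

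**Figure D3:**
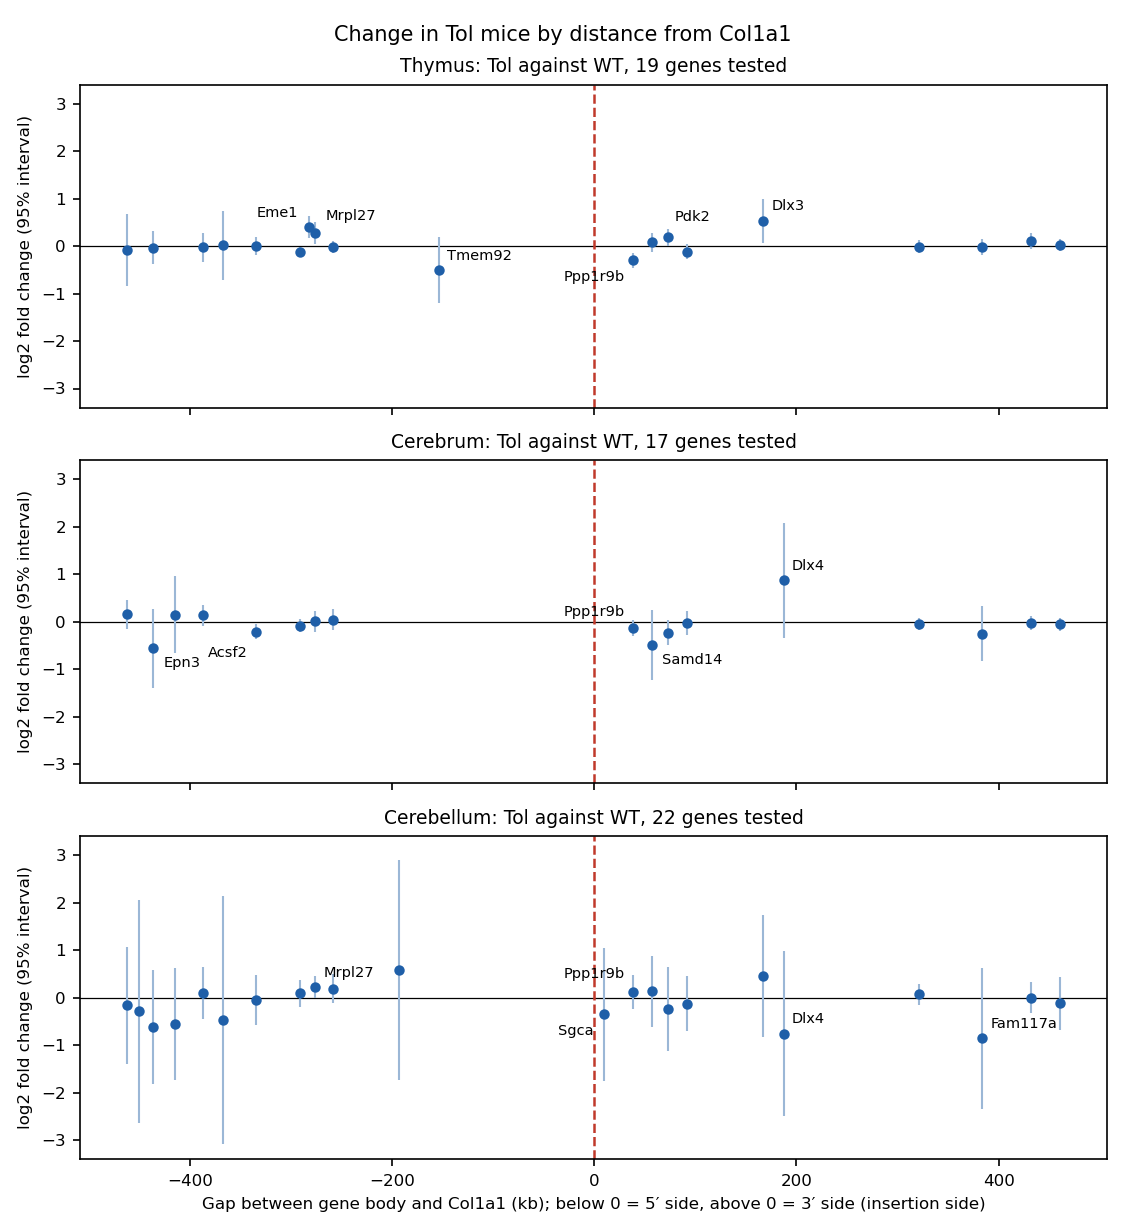
Log2 fold change of Tol against WT with 95% intervals for each member tested, by the gap between the gene body and Col1a1 in kb; the dashed line marks Col1a1 and the cassette lies just to its right. In thymus the values run from -0.51 to 0.53, intervals in cerebellum are widest, and no gene passed the adjusted threshold in an organ.

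The 95% intervals show how closely the change of each gene was bounded. They are for single genes, whereas a call used a p adjusted over all genes, so they do not give the smallest change that could be called. In thymus, the 95% interval stayed within a 1.5-fold change in either direction for 14 of 19 members and within a 2-fold change for 18. In cerebrum the counts were 12 and 14 of 17, and in cerebellum 7 and 11 of 22 (5 and 12 without the library labelled Tol 2). In the fit over 3 organs they were 13 and 19 of 24. The median absolute log2 fold change was 0.08 over the members and 0.14 over all genes in thymus, 0.14 and 0.10 in cerebrum, and 0.20 and 0.17 in cerebellum (0.22 and 0.18 without that library). Of the members, 0 of 19 in thymus, 1 of 17 in cerebrum and 3 of 22 in cerebellum had a fold change over 1.5, against 3.85%, 4.03% and 12.8% of all genes. The 3 in cerebellum were Epn3, Dlx4 and Fam117a, all lower in Tol, and none of them exceeded this fold without the library labelled Tol 2. Without it, 4 of 22 members and 15.7% of all genes did: Dlx3 (0.97) and Spata20 (0.65) above 0, and Chad (-0.80) and Mycbpap (-0.93) below 0 on the log2 scale. The WT cerebella alone ran from 0.112 to 1.30 CPM for Chad and from 2.83 to 7.90 CPM for Mycbpap.

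**Figure D4:**
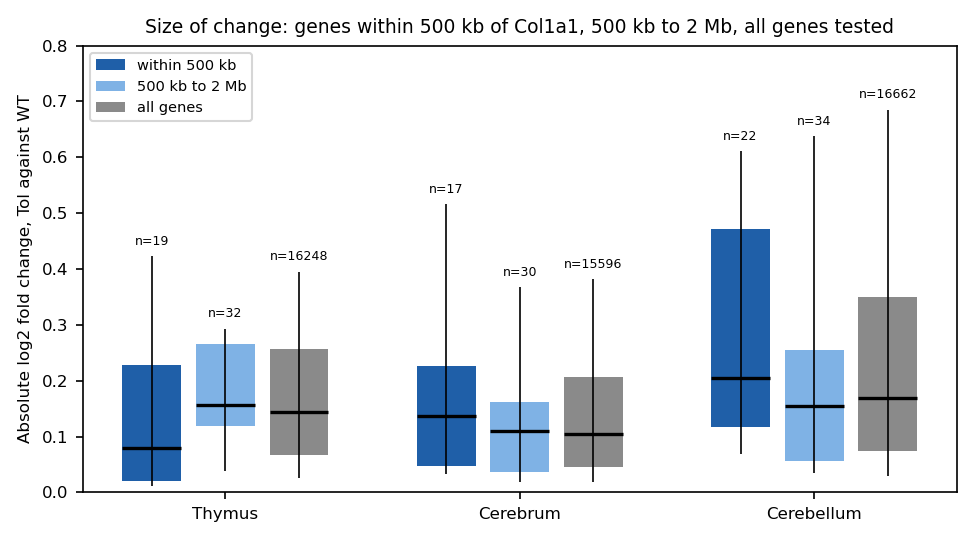
Absolute log2 fold change of Tol against WT in each organ for genes within 500 kb of Col1a1, for chromosome 11 genes at 500 kb to 2 Mb, and for all genes tested. Boxes span the middle of each distribution from the 25th to the 75th percentile, whiskers run from the 10th to the 90th, and thick lines are medians, which for genes within 500 kb are 0.08 in thymus, 0.14 in cerebrum and 0.20 in cerebellum.

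Col1a1 itself, which the rule leaves out, did not pass either. It was read at 25.1, 23.2, 30.8 and 32.4 CPM in Tol and at 42.0, 52.3, 26.5 and 43.9 CPM in WT thymus. The groups overlapped at WT 3, and the log2 fold change was -0.57 (95% interval -0.95 to -0.18; edgeR adjusted p = 0.11), with a DESeq2 adjusted p of 0.023 and a range from 0.023 to 0.497 over 17 alternatives. The 5 connective tissue markers Col1a2, Col3a1, Dcn, Lum and Fbn1 were also lower in Tol thymus, 5 of 5 with 0 called, and 0 of them were at 0. Their summed level lay between 197 and 288 CPM for Tol thymi, against 265 to 432 CPM for WT thymi. Their part in the Col1a1 value was not tested. In cerebrum, Col1a1 stood at 11.8, 18.3, 6.48 and 9.85 CPM in Tol and 9.30, 3.72, 4.64 and 6.90 CPM in WT mice. These groups overlapped, and the log2 fold change was 0.91 (95% interval 0.11 to 1.71, edgeR adjusted p = 0.446). In cerebellum it stood at 22.4 and 68.7 CPM in Tol, the higher value in the library labelled Tol 2, and from 12.3 to 16.2 CPM in WT mice. Both Tol values lay above all WT values. The log2 fold change was 1.66 (95% interval 0.68 to 2.64, edgeR adjusted p = 0.957), and 0.63 without the library labelled Tol 2. In the interaction over 16 libraries, Col1a1 had a log2 difference of 1.47 for cerebrum minus thymus (95% interval 0.58 to 2.37, edgeR adjusted p = 0.128, DESeq2 adjusted p = 0.0255). Connective tissue markers summed to 191 CPM in the library labelled Tol 2 and to 96.8 CPM in Tol 1, against 63.2 to 84.5 CPM in WT cerebella. In cerebrum they summed to between 30.4 and 44.5 CPM for Tol mice, within the WT range from 16.9 to 62.0 CPM. There 4 of the 5 markers were higher and 1 was lower in Tol, with 0 called. Their part in the brain values of Col1a1 was not tested.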

How the data were processed

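RNA of thymus, cerebrum and cerebellum was sequenced from stranded poly(A) libraries with single-end reads of 65 bases. Per the labels and the methods of the study, the authors quantified reads with Salmon 0.14.1 against GRCm38 transcripts to which Tol had been appended. The deposited values are estimated counts (expected counts) for each gene, which are whole numbers and not normalized, and 0 columns were left unused. The Ensembl release and the summing of transcripts to genes are not given in the sources used here. Cerebellum was analysed with 2 Tol libraries.

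The 35 genes were chosen by position alone; they and the gene lists were chosen with earlier results of these data known. Of 34585 entries, 34530 were found in GENCODE vM21. The deposited counts were compared in R 4.3.3 with edgeR 4.0.16 (TMM, filterByExpr, glmQLFTest, Benjamini-Hochberg adjustment over all genes), after a test on simulated data. The Tol transcript was left out of counts of genes. The standard error is the absolute log2 fold change divided by the square root of F. Alternatives were DESeq2 1.42.0, its size factors within edgeR, no filter, a minimum of 10 counts in each library, robust moderation, the replicate number as a block, all 22 libraries in 1 fit, removal of trends with length and GC content, and each library left out.

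Genes are named if they lie within 100 kb of Col1a1 and passed the filter, if they are among the 5 members with the lowest p in a Tol fit, if groups do not overlap in thymus or cerebrum, if they are among the 5 called members with the largest differences between WT organs or the 3 with the highest WT level per kb of exon. Gm11544, A430060F13Rik, Gm11545, Gm11541, Hils1, Tac4, Rsad1, Chad, Cdc34b, Kat7 and Slc35b1 were named after their values were seen. Where WT libraries held at most 3 counts each, summed counts of an organ were compared as a ratio with an exact binomial counting interval. Replicates are libraries of separate titles; where they are not stated to be separate mice, p-values measure the spread between these libraries.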

Additional observations from a re-analysis of the deposited data

Results flagged for a closer look

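Of 87 groups of 4 libraries examined for a value far from the others, 5 held one, and chance gives about 4.35. Samd14 stood at 14.2 CPM in thymus Tol 1, while the other Tol thymi had 17.1 to 17.3 CPM. Pdk2 stood at 143 CPM in cerebellum WT 2, against 178 to 179 CPM in the other WT cerebella. The other 3 were library totals: 34776973 counts in thymus Tol 1, 29145285 in thymus WT 4 and 14543698 in cerebrum Tol 4.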

How the results depend on the processing

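The count of members called between Tol and WT stayed at 0 in cerebrum, in cerebellum, over 3 organs and in the interaction under every alternative run. In thymus it was 2 with DESeq2, which called 1296 of all genes against 16 with edgeR, and from 0 to 3 with each library left out. The median log2 fold change of the members ranged from -0.033 to 0.035 in thymus, from -0.07 to -0.02 in cerebrum and from -0.32 to 0.20 in cerebellum with each library left out. With at least 10 counts in every library, fewer members were tested. There 10, 11 and 8 differed between WT cerebrum and thymus, WT cerebellum and thymus, and WT cerebrum and cerebellum. With each library left out, 15 to 16, 18 to 19 and 12 to 15 differed, in the same order. Shares of all genes under these settings are not given here, so these counts are no result about the members. Of 1803 alternative values of named genes, 1702 kept their sign and their call, 94 changed sign without ever being called, 7 became called and 0 reversed a call. The 7 are Col1a1 with DESeq2 in thymus and in the interaction, Eme1 and Ppp1r9b with DESeq2 and without thymus Tol 1, and Mrpl27 without thymus Tol 1.

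Tol and WT mice share replicate numbers, but the deviations of libraries with the same number were not alike in sign: their correlations ran from -0.18 to 0.07 in thymus, from -0.41 to 0.49 in cerebrum and from -0.21 to 0.68 in cerebellum. With the replicate block, 0 members were called in each Tol comparison, and 3 members in thymus had an unadjusted p under 0.05. The share of all genes with such a p under the block is not given here.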

Other observations

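Gm11541, a coding gene of the window that did not pass the filter and was chosen after its values were seen, held 2, 1, 2 and 3 counts in the Tol thymi and 0 counts in each WT thymus. All values are at or under the floor of 3 counts, so no fold is given. In cerebrum it held 0, 0, 0 and 2 counts in Tol and 1, 0, 0 and 0 in WT libraries, and in cerebellum 0 and 1 in Tol and 0, 1, 3 and 1 in WT libraries.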
